A study of Drosophila melanogaster with 6 samples.

Results

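The cytochrome P450 genes of Drosophila melanogaster were followed in wing imaginal discs that lack normal kdm5 function. A symbol search for the letters Cyp followed by a digit, over genes with a probe set of their own, returned 83 of 11983 measured genes. Of these, 81 are P450 genes and 2, Cyp1 and Cyp40, are cyclophilins, which are peptidyl-prolyl isomerases that share only the letters of the name. The cyclophilins are given separately and the counts below refer to the 81 P450 genes, each represented by the probe set of highest mean. The protein-coding genes Cyp12d1-p and Cyp9f3 and the pseudogenes Cyp6a15Psi and Cyp6t2Psi were not analysed here. The kdm5 mutant group held 3 biological replicates of the strain kdm510424, and the wild type group held 3 of the strain w1118. Each replicate was RNA from about 60 discs of larvae in the third instar at 96 h AED, hybridised to 1 Drosophila Genome 2.0 array. The labels give no zygosity for the mutant and no wild type of its own background, so the mutation and other differences between the strains cannot be told apart in any change below.

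P450 enzymes are haem proteins that insert an oxygen atom into a substrate, with electrons passed on by a reductase or, in mitochondria, by a ferredoxin. In insects they carry out fixed steps of hormone and cuticle lipid synthesis, and they break down plant toxins and insecticides. The family is grouped into clans by descent, and many of its genes lie in tandem. Detoxifying members are best known from midgut, fat body and Malpighian tubule, while the steps of ecdysone synthesis run in the prothoracic gland.

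Kdm5, whose product removes methyl groups from lysine 4 of histone H3, read 4.67, 3.70 and 4.49 in mutant discs, against 10.09, 10.15 and 9.98 in wild type discs (log2 signal). Of 8 disc marker genes 6 were measured, and all 6 lay above the median level of all probe sets, 4.44, on every array. The pouch gene nub read 11.90 to 12.17 in mutant discs and 11.95 to 12.02 in wild type discs, and vg alone of the 6 was called (log2 change -0.18, limma adjusted p = 0.0347). With 3 arrays in each group, precision is limited by their number. The labels do not say whether replicates came from separate crosses, and the spread behind each p-value may then be partly technical.

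Most P450 genes read low in discs of both genotypes. On all 3 mutant arrays and all 3 wild type arrays 18 of the 81 genes lay above the median level. Cyp4ad1 did so only on the wild type arrays, no gene did so only on the mutant arrays, and 62 genes did so in neither genotype. A level on an array also depends on how well its probes bind, so it sorts probe sets into dim and bright and does not rank genes. The median level of the 81 genes was 3.62 to 3.65 on mutant arrays and 3.64 to 3.76 on wild type arrays. Just above the line by mean level were Cyp6a23 (4.94), Cyp4g1 (4.66) and Cyp4ad1 (4.62), and just below it were Cyp6a16 (4.4), Cyp4aa1 (4.35) and Cyp313b1 (4.31).

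In kdm5 mutant discs 11 P450 genes fell and 2 rose at an adjusted p under 0.05 (limma, Benjamini-Hochberg adjustment over all probe sets), and 68 did not pass. Together the 13 are 16.0% of the family, against 21.7% of all measured genes, where 11.9% fell and 9.76% rose. A change of at least 2-fold was found in 3 of the 81, all lower, against 2.93% of all genes. The arrays of the genotypes did not overlap in 25 of the 81 (30.9%), against 41.7% of all genes. The share of all calls and that of genes without overlap lay below those of all genes, differences that were not tested. These shares take no account of level: most members were dim, and dim genes were called less often, as given below. The median log2 change of the family was -0.031, against 0.004 over all genes. Lower calls numbered 6 when wild type replicate 1 was left out and 7 when mutant replicate 2 or 3 was. There was 1 higher call on omitting wild type replicate 1 or 2, or mutant replicate 1 or 3.

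Calls lay mostly among the brighter members. Among the 19 P450 genes with a mean over all 6 arrays above the median level, 10 were called (52.6%), 8 of them lower and 2 higher. Among the other 62 genes 3 were called (4.84%), all lower. Of all genes, 32.3% were called above the median level and 5.35% below it. The arrays of the genotypes did not overlap in 73.7% of the 19 brighter members and in 17.7% of the other 62. Over all genes of any level that share was 41.7%. It was not computed for bright and dim genes apart, so the 73.7% has no matching background here. These counts describe the family and were not tested.

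**Figure D1:**
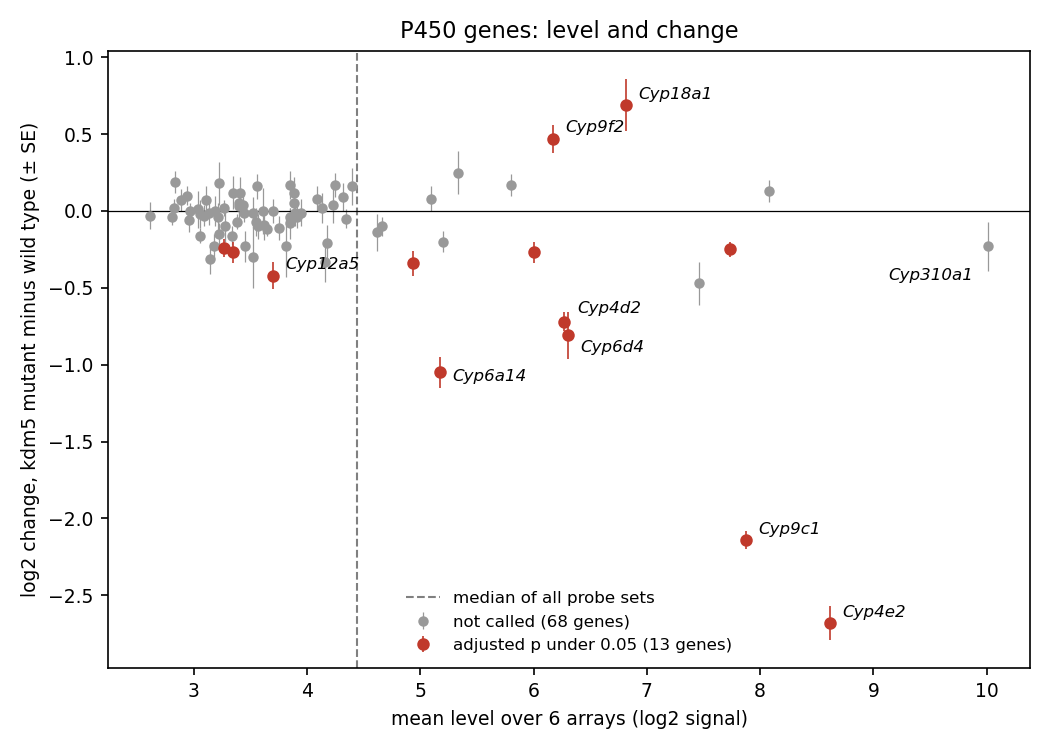
Each point is 1 of the 81 P450 genes, with its mean level over 6 arrays (log2 signal) on the horizontal axis and its log2 change, kdm5 mutant minus wild type, with the SE on the vertical axis. Cyp4e2 and Cyp9c1 stand apart at -2.68 and -2.14, and most genes left of the dashed line, the median of all probe sets (4.44), lie close to 0.

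Cyp4e2 and Cyp9c1 showed the largest falls of the family. Cyp4e2 belongs to the CYP4 clan, whose members in mammals hydroxylate fatty acids. It read 7.39, 7.31 and 7.13 in mutant discs, against 9.83, 9.87 and 10.17 in wild type discs. Every mutant array lay far below every wild type array, a 6.41-fold fall (log2 change -2.68 ± 0.11 SE, limma adjusted p = 6.62e-06). Cyp9c1, of the CYP3 clan, whose families hold many of the enzymes that act on toxins, read 6.87, 6.82 and 6.71 in mutant discs, against 8.96, 8.91 and 8.96 in wild type discs. Its groups were as clearly apart, with a 4.41-fold fall (log2 change -2.14 ± 0.06 SE, limma adjusted p = 1.18e-06). All mutant arrays still read both probe sets above the median level. In RNA of whole discs, fewer cells that make a transcript and less of it per cell cannot be told apart. Over the alternative settings the change of Cyp4e2 ran from -2.74 to -2.50 and that of Cyp9c1 from -2.18 to -1.96.

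Many markers of tissues next to the discs also fell, where 11.9% of all genes fell and 9.76% rose. Of 6 measured fat body genes 5 fell and none rose, and their summed linear signal was 1010 to 1130 on mutant arrays and 3070 to 4270 on wild type arrays. FASN1 was the brightest of the 6 on every array (9.52, 9.51 and 9.66 in mutant discs) and has the largest share of this sum. Of 8 salivary gland genes 6 fell and none rose (769 to 835 on mutant arrays, 4020 to 9220 on wild type arrays). All 5 measured muscle genes fell (349 to 451 on mutant arrays, 887 to 1150 on wild type arrays), as did 4 of 9 haemocyte genes, with 1 higher (675 to 783 on mutant arrays, 1160 to 1550 on wild type arrays). The haemocyte genes that fell were PPO1, PPO2, Col4a1 and Hml, and eater rose by 0.57. NimC1, srp, lz and Pxn were not called, with log2 changes of 0.01, -0.02, -0.02 and -0.14. Of 5 Malpighian tubule genes 1 fell, NaPi-T, a phosphate transporter gene, and none lay above the median level on all 6 arrays. Of 8 midgut genes 1 rose and 7 were not called, and 7 did not lie above the median level on all arrays of either genotype. Of 5 tracheal genes 3 rose and 1 fell. The fat body and glue gene markers varied among wild type arrays, with Fbp2 at 8.39, 6.66 and 7.50 and Sgs3 at 11.11, 9.71 and 9.42 on replicates 1, 2 and 3. Other markers that fell were tight, with the fat body gene FASN1 at 10.90, 11.10 and 10.90 and the muscle gene TpnC73F at 7.64, 7.75 and 7.59 on the same arrays. Cyp4e2 and Cyp9c1 spanned 0.34 and 0.05 over these arrays. The part of other tissues in the P450 changes was not tested.

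Cyp6a14, Cyp6d4 and Cyp4d2 fell by smaller amounts. Cyp6a14 read 4.51, 4.61 and 4.83 in mutant discs, against 5.83, 5.58 and 5.68 in wild type discs. The fall was 2.07-fold (log2 change -1.05 ± 0.10 SE, limma adjusted p = 0.000403), and all mutant arrays lay just above the median level. Cyp6d4 read 5.95, 6.12 and 5.62 in mutant discs, against 6.78, 6.47 and 6.87 in wild type discs. Its arrays scattered more than those of the other 2 genes but did not overlap between genotypes, and the fall was 1.75-fold (log2 change -0.81 ± 0.15 SE, limma adjusted p = 0.00871). Cyp4d2 read 5.97, 5.83 and 5.94 in mutant discs, against 6.68, 6.62 and 6.59 in wild type discs, a 1.65-fold fall with tight groups (log2 change -0.72 ± 0.06 SE, limma adjusted p = 0.000179). These 3 genes, like Cyp4e2, Cyp9c1 and Cyp9f2, were called under every alternative setting tried.

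**Figure D2:**
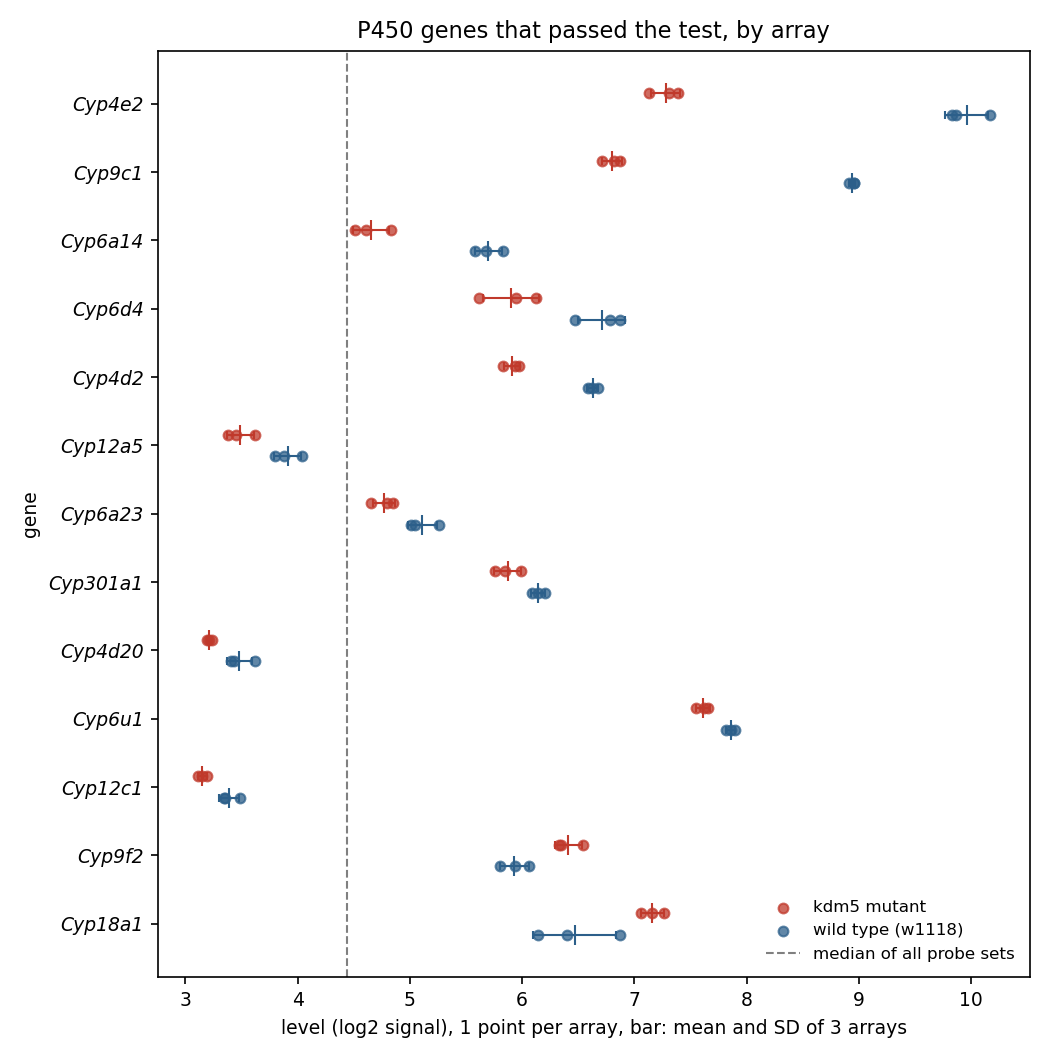
The level (log2 signal) of the 13 called P450 genes is shown on each of 3 kdm5 mutant arrays (red, upper row of each gene) and 3 wild type arrays (blue, lower row), with the mean and SD of each group. Genes are ordered by change from Cyp4e2 at the top, which fell most, to Cyp18a1 at the bottom, which rose most, and the groups of none of the 13 overlap.

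Cyp18a1 and Cyp9f2 were the P450 genes that rose. Cyp18a1 encodes the enzyme that inactivates ecdysteroids by hydroxylation at the end of the side chain, and its transcription is known to be induced by ecdysone. It read 7.26, 7.16 and 7.06 in mutant discs, against 6.40, 6.14 and 6.87 in wild type discs, a 1.61-fold rise (log2 change 0.69 ± 0.17 SE, limma adjusted p = 0.0303). The mutant arrays were close together and the wild type arrays spread widely, with wild type replicate 3 nearest the mutant. A second probe set of Cyp18a1 read 7.03, 6.83 and 6.61 in mutant discs, against 5.96, 5.54 and 6.12 in wild type discs, and also rose (log2 change 0.95 ± 0.16 SE, limma adjusted p = 0.00663). The call of the first probe set was lost when wild type replicate 1 or 2 or any mutant replicate was left out (limma adjusted p = 0.0616 to 0.0936). Cyp9f2 read 6.54, 6.35 and 6.33 in mutant discs, against 6.06, 5.80 and 5.94 in wild type discs (log2 change 0.47 ± 0.09 SE, limma adjusted p = 0.00852).

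Ecdysone synthesis uses P450 enzymes that carry names of their own, the Halloween genes, which the symbol search does not return. Of phtm, dib, sad, shd, spo and spok, phtm (phantom, the neighbour of Cyp18a1 in the genome) fell and the other 5 were not called. The share called among all genes was 21.7%. phtm read 5.28, 5.05 and 5.03 in mutant discs, against 5.50, 5.38 and 5.55 in wild type discs (log2 change -0.35 ± 0.08 SE, limma adjusted p = 0.0245). The groups lay close but apart, and the call was lost when wild type replicate 1 or 3 or mutant replicate 2 or 3 was left out (limma adjusted p = 0.077 to 0.0872). The call of phtm was also lost with quantile normalization and with centring on either set of spike-in controls. Adjacent on the chromosome, Cyp18a1 and phtm were thus called in opposite directions. dib, a mitochondrial hydroxylase, had a log2 change of -0.24 (limma adjusted p = 0.163). sad, which encodes a mitochondrial hydroxylase of the last steps, had a log2 change of 0.33 (limma adjusted p = 0.0706), and shd, which makes the active hormone in peripheral tissues, had one of 0.02. Of these 6 genes, among which sad had the highest change, 1 was called higher under several alternatives. These were quantile normalization, centring on either set of spike-in controls and leaving out dim probe sets. The others were a trended prior, array weights and the omission of wild type replicate 3. spok, the larval form of the enzyme of the early steps, and its paralogue spo lay below the median level on average in both genotypes, at 2.55 and 4.09 in mutant discs and 2.89 and 4.28 in wild type discs.

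Among 8 ecdysone-related genes that are not P450s, sro and tor fell and Npc1a and ecd rose. sro (shroud, a dehydrogenase of the early steps) read 5.61, 5.58 and 5.63 in mutant discs, against 6.64, 6.28 and 6.72 in wild type discs, a 1.92-fold fall (limma adjusted p = 0.00117). tor, the receptor of prothoracicotropic hormone in the gland, changed by -0.22 at levels of 3.08 to 3.39, below the median level in both genotypes. Npc1a, a sterol carrier, and ecd changed by 0.23 and 0.22 (limma adjusted p = 0.0252 and 0.0195). Their calls and that of tor did not last when arrays were left out: tor and Npc1a each lost theirs when wild type replicate 1 or 2 or any mutant replicate was omitted, and ecd when wild type replicate 1 or 3 or mutant replicate 1 or 2 was. Taken as markers of the prothoracic gland, 3 of 8 genes (phtm, sro and tor) fell and none rose, where 11.9% of all genes fell and 9.76% rose. In the same list sad changed by 0.33 without a call (limma adjusted p = 0.0706). The summed linear signal of the 8 was 196 to 205 on mutant arrays and 241 to 280 on wild type arrays. Of the 8, sro was the brightest on every array and changed most, so it weighs most in this sum. Whether gland tissue was carried along with the discs was not tested.

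**Figure D3:**
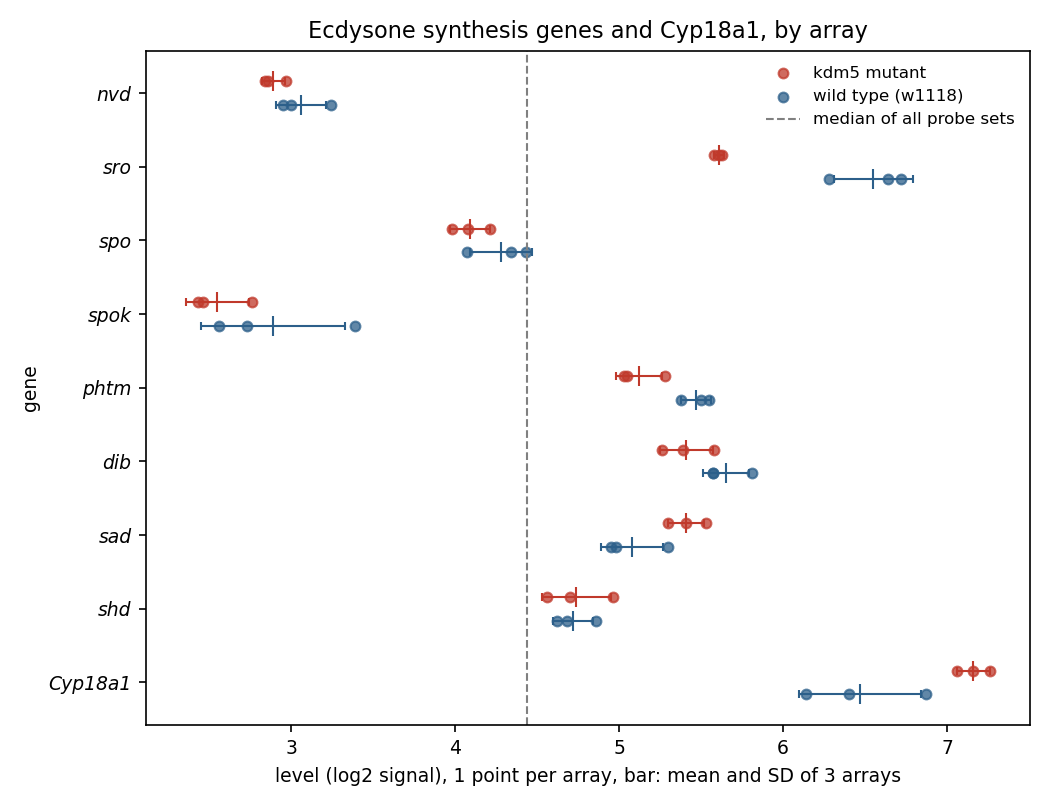
Levels (log2 signal) are shown for 8 ecdysone synthesis genes, in the order of their steps, and for Cyp18a1, on 3 kdm5 mutant arrays (red, upper row of each gene) and 3 wild type arrays (blue, lower row), with the mean and SD of each group. sro and phtm lie lower and Cyp18a1 higher on every mutant array, while nvd, spo and spok lie left of the median of all probe sets on every array. The uncalled gene sad also lies higher on every mutant array, by a margin so narrow that replicate 3 of both genotypes reads 5.30.

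The other 6 falls were small. Cyp6u1 read 7.66, 7.62 and 7.55 in mutant discs, against 7.86, 7.90 and 7.82 in wild type discs, a log2 change of -0.25 ± 0.05 SE (limma adjusted p = 0.0176). Cyp301a1, a mitochondrial clan member known for its part in the formation of the adult cuticle, read 5.85, 5.99 and 5.76 in mutant discs, against 6.20, 6.14 and 6.09 in wild type discs (log2 change -0.27 ± 0.07 SE, limma adjusted p = 0.0382). Cyp6a23 read 4.85, 4.80 and 4.65 in mutant discs, against 5.26, 5.01 and 5.05 in wild type discs (log2 change -0.34 ± 0.08 SE, limma adjusted p = 0.0294). The groups of each of these 3 genes did not overlap, and those of Cyp6u1 were the tightest. Cyp12a5, Cyp4d20 and Cyp12c1 changed by -0.42, -0.27 and -0.24 (limma adjusted p = 0.0146, 0.0304 and 0.0312), with means of 3.49, 3.21 and 3.15 in mutant discs and 3.91, 3.48 and 3.39 in wild type discs. All of these levels lie below the median, where an array resolves little.

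None of these 6 small falls stood under every setting, although each kept its direction. Cyp6u1 was lost on leaving out wild type replicate 1 or 2 or mutant replicate 2 or 3 (limma adjusted p = 0.0522 to 0.0598). Cyp301a1 was lost without any 1 of the arrays other than mutant replicate 2 (limma adjusted p = 0.0632 to 0.116). Cyp6a23 was lost on leaving out wild type replicate 1 or 3 or mutant replicate 2 or 3 (limma adjusted p = 0.0555 to 0.0886), and Cyp12a5 without mutant replicate 1 or mutant replicate 3 (limma adjusted p = 0.0518 to 0.0525). Cyp4d20 was lost without wild type replicate 1 or any mutant replicate (limma adjusted p = 0.0618 to 0.0944), and Cyp12c1 without any 1 of the arrays other than wild type replicate 2 (limma adjusted p = 0.0598 to 0.111). All 6 were also lost when arrays were centred on either set of spike-in controls, which shifts the median change of all probe sets to 0.09 or 0.19. Quantile normalization lost Cyp301a1 and Cyp6a23, a replicate term lost Cyp301a1, Cyp4d20 and Cyp12c1, and array weights lost Cyp301a1.

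Several bright P450 genes did not pass the test. Cyp310a1 read 9.74, 9.69 and 10.27 in mutant discs, against 10.31, 10.02 and 10.04 in wild type discs (log2 change -0.23 ± 0.16 SE, limma adjusted p = 0.42). Mutant replicate 3 lay among the wild type arrays, and without it the change was -0.41 (limma adjusted p = 0.0482). Cyp6v1 read 8.10 to 8.19 in mutant discs and 7.89 to 8.12 in wild type discs, and the groups overlapped. Cyp6a17, known in flies for its role in temperature preference, read 7.44, 7.36 and 6.87 in mutant discs, against 7.66, 7.64 and 7.79 in wild type discs (log2 change -0.47 ± 0.14 SE, limma adjusted p = 0.0634). Its groups did not overlap, mutant replicate 3 was lowest, and it was called without mutant replicate 1 or mutant replicate 3 (limma adjusted p = 0.0485 and 0.0415). Cyp28d2 read 5.81 to 5.94 in mutant discs and 5.65 to 5.82 in wild type discs.

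P450 genes known for insecticide resistance read low in both genotypes. Cyp6g1, whose overexpression confers resistance to DDT, read 3.37, 3.44 and 3.30 in mutant discs, against 4.17, 3.34 and 3.52 in wild type discs. Wild type replicate 1 stood above the other 5 arrays, which overlapped (limma adjusted p = 0.364). Cyp6g2 averaged 3.94 in mutant discs and 3.95 in wild type discs, Cyp6a2 averaged 3.81 in mutant discs and 3.89 in wild type discs, and Cyp6a8 averaged 3.58 in mutant discs and 3.67 in wild type discs. Cyp12d1-d, which is inducible by phenobarbital, averaged 2.97 in mutant discs and 2.97 in wild type discs. Cyp12a4, known for resistance to lufenuron, averaged 3.26 in mutant discs and 3.42 in wild type discs (limma adjusted p = 0.117). None of these 6 genes was called, and at these levels a difference between low transcript amounts may not be detectable.

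Members with fixed roles in other cells read just above the median level or below it. Cyp4g1, the enzyme of oenocytes that completes the synthesis of cuticular hydrocarbons, averaged 4.61 in mutant discs and 4.71 in wild type discs. Of 4 oenocyte markers, Cyp4g1 among them, none was called, with a summed linear signal of 73.9 to 77.4 on mutant arrays and 76.0 to 85.0 on wild type arrays. Cyp4g15, its paralogue of the nervous system, averaged 2.93 in mutant discs and 2.99 in wild type discs. Cyp303a1, needed for sensory organ structure and function, averaged 3.19 in mutant discs and 3.24 in wild type discs, and Cyp49a1 averaged 4.33 in mutant discs and 4.16 in wild type discs. All 68 genes without a call changed by less than 0.5 on the log2 scale, from -0.47 to 0.25, with 29 above 0 and 39 below it. At an unadjusted p under 0.05 there were 23 of the 81, the 13 included. The spread among wild type arrays was largest in Cyp318a1 (SD 0.46, n = 3), where replicate 2 read 4.46 and the other 5 arrays 3.64 to 3.75.

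The changes were spread over the clans. In the mitochondrial clan 3 of 8 genes fell (Cyp12a5, Cyp301a1 and Cyp12c1) and none rose, where 11.9% of all genes fell and 9.76% rose. In the CYP2 clan, which holds the hormone enzymes of the endoplasmic reticulum, Cyp18a1 alone of 4 genes with Cyp symbols was called. The Halloween genes, which belong to the CYP2 or the mitochondrial clan, are left out of these counts, and phtm among them fell. In the CYP3 clan 5 of 37 fell and 1 rose, and in the CYP4 clan 3 of 32 fell and none rose. Median log2 changes were -0.09, 0.02, -0.01 and -0.04 in that order, against 0.00 over all genes. Among the larger families, 4 of 23 Cyp6 genes fell, 3 of 22 Cyp4 genes fell, and of 5 Cyp9 genes Cyp9c1 fell and Cyp9f2 rose. None of 6 Cyp313 genes and none of 4 Cyp28 genes was called (limma), and their changes ran from -0.01 to 0.09 and from -0.10 to 0.17. In these 2 families Cyp28d2 alone had an unadjusted p under 0.05.

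**Figure D4:**
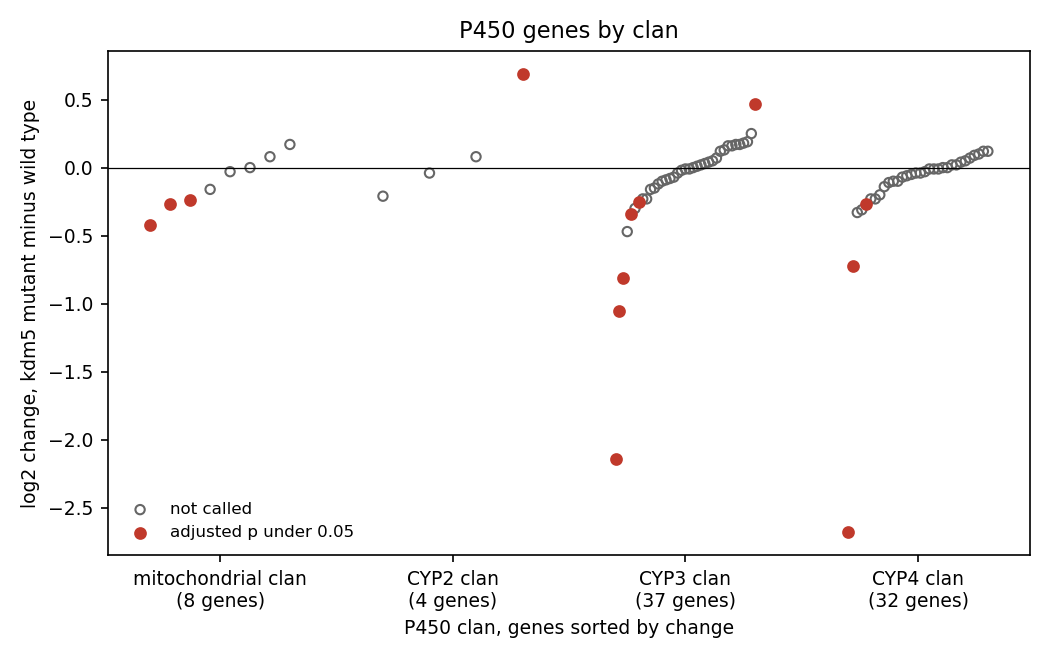
The log2 change, kdm5 mutant minus wild type, of each of the 81 P450 genes is plotted by clan, with genes sorted by change within a clan and called genes filled in red. Called falls lie toward the left end of each clan other than CYP2, in the CYP3 and CYP4 clans with uncalled genes among them, and the called rises are Cyp18a1 in the CYP2 clan and Cyp9f2 in the CYP3 clan.

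The called genes were spread over tandem groups and single genes. In the order of protein-coding genes 43 P450 genes with Cyp symbols lie in 15 groups with no other gene between them, and 42 of these were measured. A call was made in 5 groups, for 1 gene in each, and 8 called genes lie outside the groups. In the whole family 16.0% of genes were called, and among all genes 21.7%. The symbol search leaves phtm out of these groups, so that the adjacent pair of Cyp18a1 and phtm is not among them. Cyp4e2 lies between Cyp4ad1 and Cyp4e1, whose log2 changes were -0.14 ± 0.12 and 0.07 ± 0.09 SE (limma adjusted p = 0.5 and 0.692), against -2.68 for Cyp4e2 itself. The 2 neighbours are dim, at 4.55 and 3.14 in mutant discs and 4.69 and 3.07 in wild type discs, where a fall may not be detectable. Cyp4d2 (-0.72) lies between Cyp4d14 (-0.20, adjusted p = 0.0943) and Cyp4ae1 (-0.04, adjusted p = 0.742; limma). Cyp6a14 (-1.05) is next to Cyp6a13 (-0.23, limma adjusted p = 0.169), and Cyp12a5 (-0.42) is next to Cyp12a4 (-0.16).

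In the largest group, 9 genes of which 8 belong to the Cyp6a subfamily, Cyp6a23 was called (-0.34) and its neighbour Cyp6a17 was not (-0.47, groups not overlapping), while the other 7 changed by -0.15 to 0.19. Both were called with dim probe sets left out, with a trended prior and without mutant replicate 1, and Cyp4d14 was called beside Cyp4d2 with dim probe sets or wild type replicate 3 left out. Cyp6a17 and Cyp6a23 are close paralogues, and signal shared between their probe sets was not tested. Next to the 13 called genes lie 17 places held by genes that are no P450s, of which 15 were measured. Of these 1 was called, Ak6 beside Cyp301a1 (-0.28, limma adjusted p = 0.00924), against 21.7% of all genes. CG13594 and CG3640, on either side of Cyp9c1, changed by 0.04 and -0.01 (limma adjusted p = 0.702 and 0.942). These neighbours, the uncalled tandem genes and Cyp318a1 were chosen after their values were seen.

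**Figure D5:**
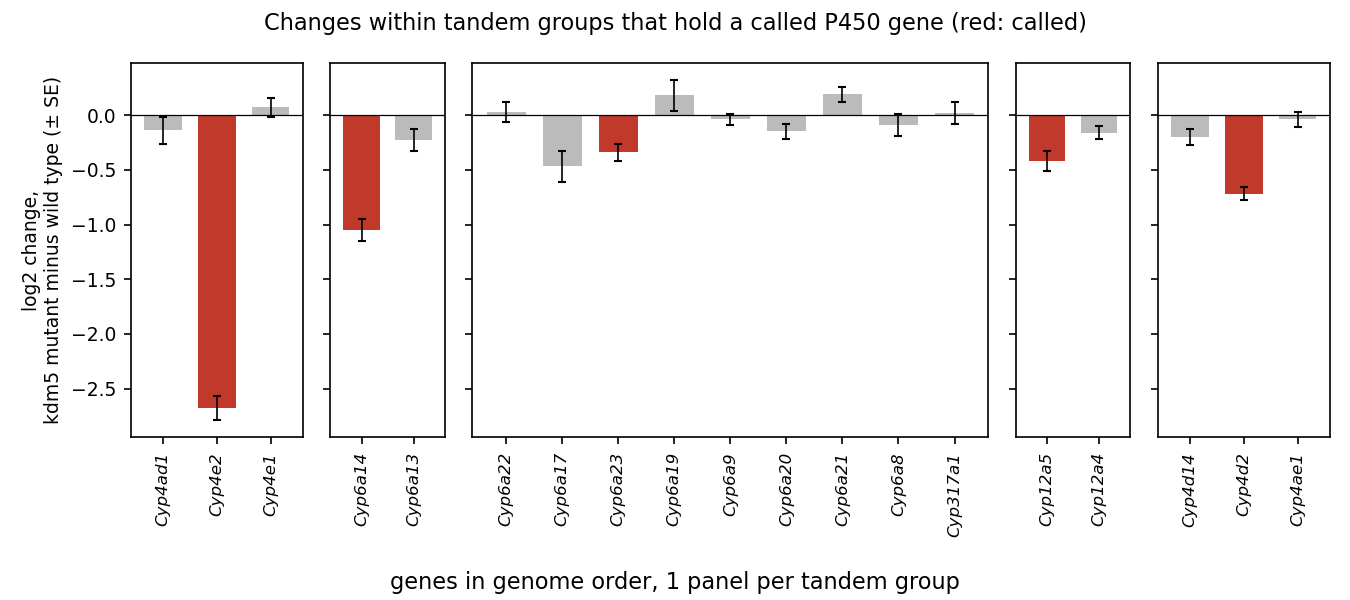
Bars give the log2 change, kdm5 mutant minus wild type, with the SE, of the P450 genes in each of the 5 tandem groups that hold a called gene (red), in genome order. One gene per group is called, Cyp6a17 beside the called Cyp6a23 is at -0.47, and Cyp4e2 at -2.68 stands between neighbours at -0.14 and 0.07.

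The measured partners that supply P450s with electrons had small log2 changes, from -0.26 to 0.27. Of 4 measured genes 1 rose and 1 fell, where 21.7% of all genes were called. Cyt-b5, cytochrome b5, which feeds electrons to some P450s of the endoplasmic reticulum, read 11.43, 11.45 and 11.32 in mutant discs, against 11.11, 11.14 and 11.14 in wild type discs (log2 change 0.27 ± 0.05 SE, limma adjusted p = 0.0130). Fdx1, a mitochondrial ferredoxin, read 7.94, 7.95 and 7.96 in mutant discs, against 8.24, 8.16 and 8.24 in wild type discs (log2 change -0.26 ± 0.05 SE, limma adjusted p = 0.00854). The groups of both genes were tight and apart. Fdx2 had a log2 change of 0.00 and Cyt-b5-r one of 0.07, and Cpr and dare, the reductases of the microsomal and the mitochondrial chain, were not analysed here. Cyt-b5 lost its call without mutant replicate 1 or mutant replicate 2 (limma adjusted p = 0.0529 to 0.0581), and Fdx1 lost it when arrays were centred on either set of spike-in controls.

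Regulators of the xenobiotic response were bright in both genotypes. Of 6 such genes, maf-S, the partner of Cnc on antioxidant response elements, fell and Hr96, a nuclear receptor that controls detoxification genes, rose. All 6 lay above the median level, and of all genes with a mean above it 32.3% were called. maf-S read 10.45, 10.47 and 10.43 in mutant discs, against 10.73, 10.77 and 10.73 in wild type discs (log2 change -0.29, limma adjusted p = 0.00422). Hr96 read 7.76, 7.64 and 7.65 in mutant discs, against 7.46, 7.48 and 7.49 in wild type discs (log2 change 0.21, limma adjusted p = 0.0353). The groups of both were apart by a small margin, the call of Hr96 was lost without any 1 of the 6 arrays (limma adjusted p = 0.0628 to 0.112), and that of maf-S with either spike-in centring. cnc, Keap1, ss and tgo had log2 changes of 0.18, -0.13, 0.10 and 0.09 and were not called.

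Genes for haem, the cofactor of every P450, moved in both directions. Of 7 measured genes 2 rose and 1 fell. All 7 lay above the median level on every array, and of all genes with a mean above it 32.3% were called. Coprox, coproporphyrinogen oxidase, read 10.01, 9.98 and 9.90 in mutant discs, against 9.27, 9.26 and 9.31 in wild type discs, a 1.61-fold rise (limma adjusted p = 0.000133). Ppox, which acts on the product of that enzyme, rose by 0.18 (limma adjusted p = 0.0385), and this call was lost without any 1 of the 6 arrays. Pbgs, an enzyme of the early steps, fell by 0.29 (limma adjusted p = 0.00959) and lost its call with either spike-in centring. Alas, the rate-limiting enzyme of the pathway, read 9.47, 9.48 and 9.53 in mutant discs, against 9.93, 9.75 and 10.54 in wild type discs. Its groups did not overlap, but wild type replicate 3 stood apart and the log2 change of -0.58 was not called (limma adjusted p = 0.0724). Uros1, Urod and FeCH had log2 changes of 0.15, 0.15 and 0.04 and were not called, and Ho was not analysed here.

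The 2 cyclophilin genes were bright and not called. Cyp1 averaged 14.02 ± 0.02 in mutant discs and 14.10 ± 0.01 in wild type discs, and Cyp40 averaged 8.71 ± 0.01 in mutant discs and 8.64 ± 0.04 in wild type discs (log2 signal, SD, n = 3 each). Their log2 changes were -0.08 and 0.08 (limma adjusted p = 0.325 and 0.338).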

How the data were processed

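The values are the deposited log2 signals per probe set of 6 Affymetrix Drosophila Genome 2.0 arrays, normalized by the authors. Per the submitters' processing notes GCOS, Affymetrix Expression Console, PLIER and GCRMA were used; the notes do not tie any of them to the values, and no detection call was at hand. Of the probe sets, 183 controls were left out and 18769 were tested. Probe sets were named through GEO's platform annotation, where 13647 have 1 gene symbol, 402 several and 4720 none. Symbols were updated by gene identifier with the RefSeq table of the Release 6 assembly, which also gave gene order. The probe set of highest mean over the 6 arrays stands for a gene.

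All probe sets were fitted with limma 3.58.1 (lmFit and eBayes, R 4.3.3) on genotype alone. Tests were two-sided, with p-values adjusted by Benjamini-Hochberg over all of them. A call is an adjusted p under 0.05. Changes are mutant minus wild type. The fit was tested on simulated data. Members, gene lists, tests and alternatives were chosen with earlier results of these data known. Named genes are all called members, the 12 brightest, 14 of known role and 3 on either side of the level line, called genes of the related lists, and neighbours named after their values were seen. Clans were assigned from family numbers. The promoter motif search was not run, and no sequence is printed, because no sequence table was at hand.

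Alternatives were a replicate term, quantile normalization, centring on array medians or on 24 polyadenylated or 18 hybridization spike-in probe sets, a filter on dim probe sets, another prior, array weights, 1 or averaged probe sets per gene, and each array left out.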

Additional observations from a re-analysis of the deposited data

How the results depend on the processing

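All 13 called P450 genes kept their direction under all alternatives run for them, and Cyp4e2, Cyp9c1, Cyp6a14, Cyp6d4, Cyp4d2 and Cyp9f2 also kept their call. Counts of lower calls were 6 with centring on polyadenylated spike-ins and 5 on hybridization spike-ins, against 11 as reported, and ran from 6 to 9 with 1 array left out. Higher calls numbered 16 with the hybridization spike-ins and 1 or 2 with 1 array left out, against 2. That centring shifts the median change of all probe sets to 0.19 and that of the P450 genes to 0.15. With dim probe sets left out the median change of the P450 genes was -0.225 over the 19 genes kept. All genes with a mean above the median level had a median change of -0.004, and this difference was not tested. With the 75th percentile (8.48) as level line, 3 genes lay above it in a genotype, against 19. Deviations of same-numbered arrays from their group means correlated at 0.00187, 0.0057 and -0.11, so the numbers were not taken to pair the arrays. With the replicate number as a block 1 gene was called higher and 8 lower, and 0 of 6 arrays correlated best with the array of their own number. The Kdm5 change ran from -5.98 to -5.50. Of 481 single values of the named P450 genes under an alternative, 48 lost a call and 12 gained one, and none reversed a called direction. Of 301 such values of related genes 63 lost a call. Over all 81 P450 genes, centring on hybridization spike-ins alone gained 14 calls and lost 6. The cause of the lost calls was not tested. Levels below the median level of 4.44 limit what can be said of the 62 dim genes.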

Other observations

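Conjugating enzymes that act after P450s were counted in the same fit. Of 35 UDP-glycosyltransferase genes, which couple sugars to lipophilic compounds, 3 rose and 4 fell in kdm5 mutant discs (limma adjusted p under 0.05), a share to be set beside 21.7% of all genes called. Ugt302K1 read 10.44, 10.43 and 10.28 in mutant discs, against 8.19, 8.19 and 8.32 in wild type discs, a log2 change of 2.15 (limma adjusted p = 2.1e-06). Every mutant array lay far above every wild type array, and the change was 2.12 to 2.33 over the alternatives. Ugt50B3 rose by 0.99 and Ugt302E1 by 0.32, while Ugt35A1, Ugt317A1, Ugt36D1 and Ugt36A1 fell by 0.81, 0.72, 0.45 and 0.35 (limma adjusted p = 0.000485 to 0.0387 for these 6). Ugt302E1 lost its call without any 1 of the arrays other than mutant replicate 1, and Ugt36A1 without wild type replicate 2 or any mutant replicate. Of 10 measured esterase genes none was called (limma), and 3 had an unadjusted p under 0.05: alpha-Est9, alpha-Est8 and alpha-Est3, with log2 changes of 0.22, 0.28 and -0.17. The first 2 of these were chosen after their values were seen; alpha-Est3 and alpha-Est10, at 0.09, were the brightest of the list.

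A probe set shared by Cyp12d1-d and Cyp12d1-p averaged 3.37 in mutant discs and 3.53 in wild type discs, and one shared by Cyp6v1 and shn averaged 8.03 in mutant discs and 8.20 in wild type discs. Neither was called (limma adjusted p = 0.321 and 0.251). A dimmer second probe set of Cyp12e1 had a log2 change of 0.34 (limma adjusted p = 0.0656), against 0.08 for the brighter one.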
